A study of Mus musculus with 12 samples.

Results

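Of the 12087 gene names in the deposited peak table, 6 are described here that carried Argonaute-bound peaks with more reads in fetal liver lacking the miR-144/451 locus than in wild-type liver. They were Sbno1, Ell2, Msl2, Cmas, Gadd45a and Tmcc2. They were chosen from the 28 genes with a peak called higher in the knockout, so the knockout against wild-type values of the chosen peaks are descriptions and carry no test. All 179 of their peaks among the 106382 in the table were taken, namely 32 of Sbno1, 39 of Ell2, 25 of Msl2, 21 of Cmas, 14 of Gadd45a and 48 of Tmcc2. The question was whether the gain lay at a single site or over the whole transcript.

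The study used HITS-CLIP, in which RNA crosslinked to Argonaute (Ago) protein is precipitated and sequenced, on fetal liver of C57BL/6J mice. The knockout (KO) embryos lacked miR-144/451 and the wild-type (WT) embryos carried it, and the labels give no embryonic age. Each genotype gave 3 libraries precipitated with an Ago antibody (KO 3, 12 and 13, WT 1, 9 and 10) and 3 with control IgG (KO 4, 8 and 14, WT 2, 6 and 11), named by the library numbers in their titles. The labels do not tie a library to a liver, so p-values measure the spread among these libraries, which may be partly technical. The KO Ago libraries held 147969 to 341061 reads in peaks, the WT Ago libraries 202876 to 452157, the KO IgG libraries 24622 to 42916 and the WT IgG libraries 25985 to 42399. HITS-CLIP of whole liver measures Ago-bound RNA per library, so fewer cells of a type and less bound RNA per cell cannot be told apart.

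Ago proteins are loaded with microRNAs, which guide them to transcripts by pairing of the seed, bases 2 to 8 of the microRNA, with a complementary site, usually in the 3′UTR. Binding of this kind lowers translation and shortens the life of the transcript. The miR-144/451 locus encodes microRNAs that are abundant in developing red cells, and miR-16 is a widely expressed microRNA encoded elsewhere in the genome. The mature sequences that define the deposited seed codes are shown from RefSeq (GRCm38.p6), with the seed in capitals, because the peaks below are sorted by them.

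miR-451a: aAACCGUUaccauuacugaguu
miR-144-3p: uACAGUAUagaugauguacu
miR-144-5p: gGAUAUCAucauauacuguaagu
miR-16-5p: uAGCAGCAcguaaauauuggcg

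The 3 microRNAs of the locus share no seed with each other or with miR-16-5p. A full match to bases 2 to 8 (a 7-mer-m8) reads AACGGUU for miR-451a, AUACUGU for miR-144-3p, UGAUAUC for miR-144-5p and UGCUGCU for miR-16-5p, 5′ to 3′ on the transcript. The deposited codes also count weaker matches, from a single mismatch or an offset match up to a 6-mer, a 7-mer-A1, a 7-mer-m8 and an 8-mer. "Locus code" below means any of these for a microRNA of the deleted locus, and the sequences of the peaks themselves are not shown.

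Of the 179 peaks, 21 had enough reads to be tested. Of these, 6 were called higher in KO, 1 in each gene, 1 was called lower and 14 were not called (edgeR quasi-likelihood test, Benjamini-Hochberg adjusted over 2425 tested peaks, threshold 0.05). Among all tested peaks 1.4% were called higher and 17.6% lower. Since the genes were chosen by the calls, their count is not read against these shares. The peaks called higher in Sbno1, Cmas and Gadd45a, and 2 of the peaks not called, passed the filter on low counts only through the KO libraries, so a difference was built into their being tested. The 158 other peaks had at most 67 Ago reads, with a median of 13.5. Their raw sum was larger in KO for 63, smaller for 79 and equal for 16, and together they held 1331 reads in KO and 1620 in WT. That ratio of 0.822 compares with 0.726 for all reads of the table, since the KO libraries were shallower, and 100 of the 158 peaks stood above the ratio of all reads and 58 below it.

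Levels per peak are CPM (counts per 1000000) with TMM scaling over the reads in tested peaks. Sbno1, a helicase-like nuclear protein whose fly counterpart strawberry notch acts in the Notch pathway, gained at a 3′UTR peak at chr5:124373455-124373504 (mm10, minus strand). It had 267, 455 and 228 CPM in KO libraries 3, 12 and 13, against 48.7, 95.8 and 32.9 CPM in WT libraries 1, 9 and 10. The lowest KO library stood above the highest WT library, and the log2 change of 2.29 ± 0.50 (SE) placed it first of the 34 peaks called higher, which ranged from 0.93 to 2.29. The counts behind it were small, with 9, 24 and 6 reads in KO and 2, 6 and 1 in WT. It lay 4753 nt from the annotated 3′ end of the gene. It was the only one of the 6 peaks with a locus code, a miR-144-3p match with a mismatch.

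Ell2, an elongation factor of RNA polymerase II found in the super elongation complex, gained at chr13:75772262-75772301 (plus strand) in the 3′UTR, 60 nt from the end of the gene. It had 654, 1005 and 609 CPM in KO libraries 3, 12 and 13, against 341, 351 and 197 CPM in WT libraries 1, 9 and 10. The groups did not overlap, and the log2 change was 1.33 ± 0.35 (SE). Msl2, a ubiquitin ligase and subunit of the MSL complex that acetylates histone H4, gained at chr9:101102297-101102335 (plus strand), also in the 3′UTR. It had 832, 701 and 875 CPM in KO libraries 3, 12 and 13, against 292, 383 and 394 CPM in WT libraries 1, 9 and 10. Both groups were narrow and well apart, 803 ± 90.4 CPM in KO and 357 ± 56.1 CPM in WT (SD, n = 3 each), with a log2 change of 1.15 ± 0.31 (SE). It lay 2465 nt from the end of the gene.

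Cmas activates sialic acid by joining it to CMP, the step before sialic acid can be put on glycans. Its gain lay at chr6:142775526-142775560 (plus strand), 154 nt from the end of the gene in the 3′UTR. The peak had 356, 796 and 418 CPM in KO libraries 3, 12 and 13, against 146, 192 and 32.9 CPM in WT libraries 1, 9 and 10. All KO libraries were above all WT libraries but KO library 12 stood high, and the log2 change was 1.97 ± 0.48 (SE). WT library 10 rested on a single read.

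Gadd45a, a stress protein induced by p53 in growth arrest and DNA damage, was the only gene whose higher peak lay in coding sequence, at chr6:67035694-67035727 (minus strand), 598 nt from the end of the gene. It had 475, 531 and 457 CPM in KO libraries 3, 12 and 13, against 97.4, 239 and 197 CPM in WT libraries 1, 9 and 10. The KO libraries lay close together and WT library 1 was lowest, with a log2 change of 1.41 ± 0.39 (SE). The gene overlaps the noncoding RNA gene E230016M11Rik, which holds 6 of its peaks but not this one.

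Tmcc2, a membrane protein of the endoplasmic reticulum with coiled coils, gained at chr1:132356460-132356489 (minus strand) in the 3′UTR, 145 nt from the end of the gene. It had 861, 853 and 913 CPM in KO libraries 3, 12 and 13, against 170, 511 and 296 CPM in WT libraries 1, 9 and 10. The KO libraries were nearly level, the WT libraries spread widely without reaching them, and the log2 change was 1.35 ± 0.36 (SE).

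**Figure D1:**
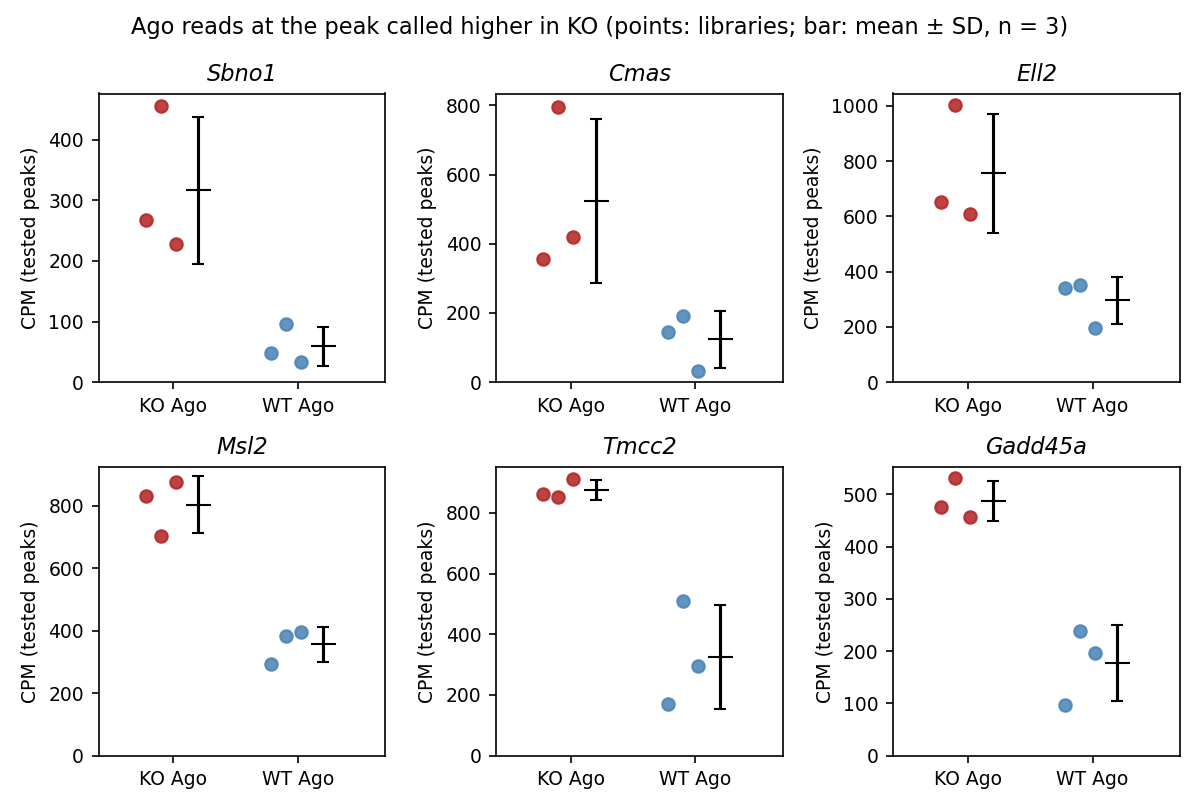
Ago reads (CPM of tested peaks, linear axes from 0) at the peak of each gene called higher in KO, with 1 point per library, KO on the left and WT on the right, and mean ± SD (n = 3). In all 6 panels the KO points lie above the WT points, with KO library 12 high in Sbno1 (455) and Cmas (796).

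In order of log2 change the peaks ran Sbno1, Cmas, Gadd45a, Tmcc2, Ell2 and Msl2, and neighbours in this order lay within the sum of their standard errors. All 6 had every KO library above every WT library, as had 10.1% of tested peaks. The member peaks not called that had the largest log2 changes were those of Ell2 at chr13:75770943-75770973, with 1.06 ± 0.42, and chr13:75763870-75763898, with 0.82 ± 0.36 (SE). The smallest called change was that of Msl2, at 1.15.

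The calls leaned on single libraries. Without KO library 12, 2 of the 6 peaks were called (Msl2 and Tmcc2), and without WT library 1 also 2 (Cmas and Ell2), while the Sbno1 peak was no longer tested in either case. With no filter on low counts only the peaks of Sbno1 and Cmas were called. All log2 changes stayed positive under the alternatives in which the peak was tested, from 0.90 for Msl2 to 2.52 for Sbno1, and that of Tmcc2 was 1.95 without WT library 9.

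In the authors' deposited table, which keeps 6651 peaks after a filter on height, IgG ratio and density, 1.29% of peaks had a higher KO level at a false discovery rate under 0.05 and 35.7% a lower one. It holds 9 of the 179 peaks, of which 2 were higher and 2 lower. The higher ones were the Cmas peak (log2 change 1.63, false discovery rate 0.031) and the Tmcc2 peak (log2 change 1.01, false discovery rate 0.0487) in the authors' deposited table. The Ell2 peak had a log2 change of 0.90 (false discovery rate 0.080) and the Msl2 peak 0.68 (false discovery rate 0.111) there. The Sbno1 and Gadd45a peaks fell short of the filter's density over background of 5, with deposited scores of 2.72 and 3.12.

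The reads of all peaks of a gene were then summed, which asks whether the gene as a whole gained. None of the 6 genes was called in either direction, where 0.655% of 4430 tested genes were called higher and 5.37% lower. Gene levels (gene CPM) are scaled in the same way to the reads of tested genes. Sbno1 had 330, 416 and 357 gene CPM in KO libraries 3, 12 and 13, against 214, 293 and 179 gene CPM in WT libraries 1, 9 and 10. Its groups did not overlap, and its log2 change of 0.66 ± 0.23 (SE) was the largest of the 6. Gadd45a had 573, 529 and 637 gene CPM in KO libraries 3, 12 and 13, against 433, 397 and 359 gene CPM in WT libraries 1, 9 and 10, again without overlap and with a log2 change of 0.53 ± 0.19 (SE).

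Tmcc2 averaged 1941 ± 53.9 gene CPM in KO and 1589 ± 163 gene CPM in WT (SD, n = 3 each). Its groups too did not overlap, with a log2 change of 0.29 ± 0.16 (SE). Every KO library was thus above every WT library in 3 of the 6 gene sums, against 11.5% of all tested genes, and these sums include the chosen peaks. Ell2 averaged 1037 ± 168 gene CPM in KO and 847 ± 156 gene CPM in WT, Msl2 482 ± 53.3 gene CPM in KO and 396 ± 73.0 gene CPM in WT (SD, n = 3 each). Both overlapped between the groups and had a log2 change of 0.28 ± 0.20 (SE). Cmas was the only gene with a lower sum in KO, 361 ± 66.0 gene CPM in KO and 392 ± 26.8 gene CPM in WT (SD, n = 3 each), with a log2 change of -0.08 ± 0.20 (SE). The median over the 6 genes was 0.29, and over all tested genes 0.03.

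The share of a gene's Ago reads that fell on its higher peak does not depend on depth or scaling. Cmas had the widest shift, with 26.1%, 36.2% and 34.4% of its reads on the peak in KO libraries 3, 12 and 13, against 7.50%, 9.76% and 1.82% in WT libraries 1, 9 and 10. Msl2 had 38.9%, 32.7% and 45.1% in KO libraries 3, 12 and 13, against 19.0%, 18.5% and 18.2% in WT libraries 1, 9 and 10, so the WT libraries were almost equal. Sbno1 had 20%, 21.6% and 16.2% in KO libraries 3, 12 and 13, against 4.88%, 6.06% and 4.00% in WT libraries 1, 9 and 10. The difference in share of Sbno1, KO minus WT, 14.3 percentage points from read counts, was 6.78 percentage points from the deposited maximum coverage.

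The shares of the other 3 genes differed less. Gadd45a averaged 19.5% ± 1.20 in KO and 9.34% ± 3.93 in WT, Ell2 16.7% ± 2.71 in KO and 7.12% ± 1.28 in WT, and Tmcc2 10.6% ± 1.83 in KO and 4.21% ± 2.01 in WT (SD, n = 3 each). In all 6 genes every KO share was above every WT share, as at 16.2% of 2122 tested peaks whose gene held reads elsewhere in every Ago library. The choice of the peaks favours this direction, so it is no separate evidence.

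**Figure D2:**
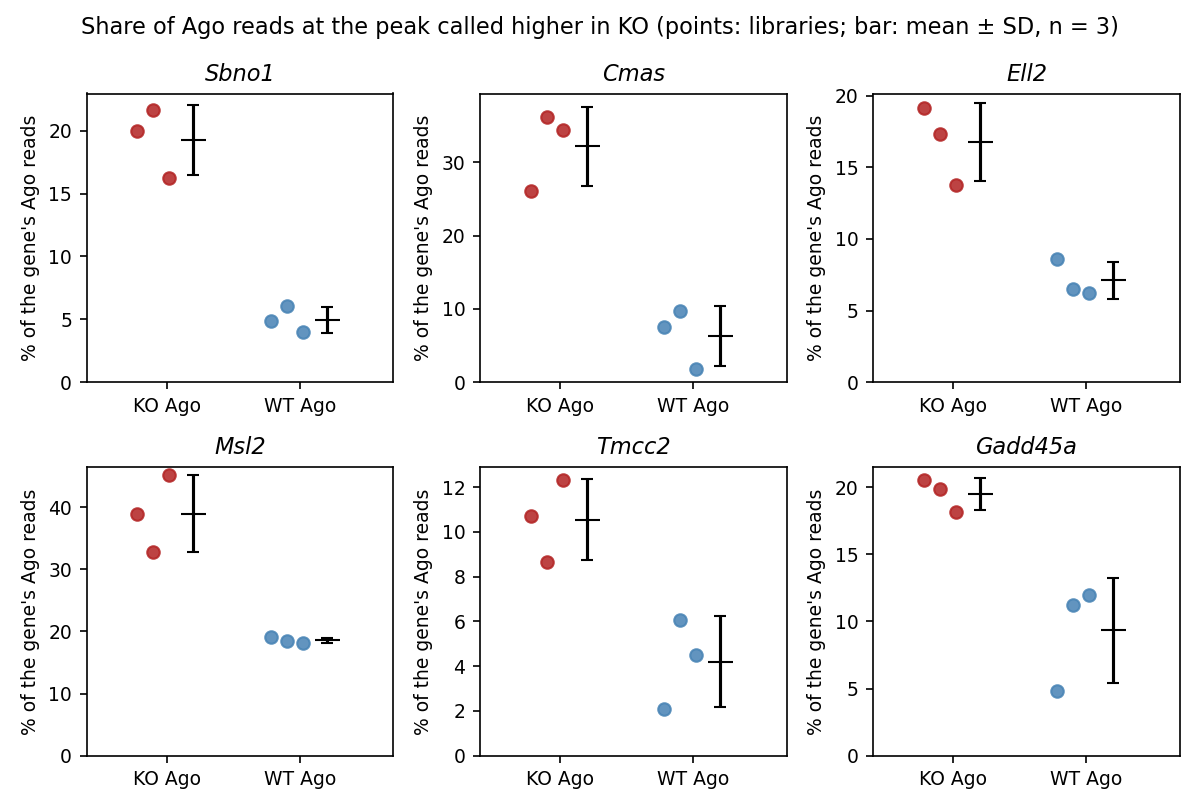
Percent of each gene's Ago reads on its peak called higher in KO (linear axes from 0), with 1 point per library, KO on the left and WT on the right, and mean ± SD (n = 3). The KO points are above the WT points in all 6 panels, with Cmas at 26.1% to 36.2% in KO and 1.82% to 9.76% in WT.

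Setting the peak against the rest of its gene gave the size of the local gain. The ratio of peak to remaining reads was 6.31 times higher in KO than in WT for Cmas (95% exact interval 3.55 to 11.7) and 4.37 times for Sbno1 (2.00 to 10.6). It was 2.69 times for Ell2 (1.81 to 4.07), 2.61 times for Msl2 (1.70 to 4.03), 2.36 times for Gadd45a (1.40 to 4.10) and 2.34 times for Tmcc2 (1.62 to 3.42). These intervals pool the libraries of a group and cover counting error only, and the peaks were chosen on these reads.

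What remained after removing the peak differed between the genes. For Gadd45a the rest was 467 ± 49.9 gene CPM in KO and 360 ± 48.7 gene CPM in WT (SD, n = 3 each), with every KO library above every WT library and a log2 ratio of means of 0.37. For Sbno1 it was 297 ± 31.0 gene CPM in KO and 217 ± 52.8 gene CPM in WT (SD, n = 3 each), with overlap and a log2 ratio of 0.45. In these genes, then, the rest of the transcript was also higher in KO on average, by less than the peak. For Cmas the rest was 243 ± 37.7 gene CPM in KO and 367 ± 33.7 gene CPM in WT (SD, n = 3 each), with every KO library below every WT library and a log2 ratio of -0.59. Its near-level gene sum was made of a peak that was higher and a remainder that was lower in these libraries. How often a remainder separates the groups was not counted over all genes, so the separations in Gadd45a and Cmas are descriptions only. The log2 ratios of the rest were 0.19 for Tmcc2, 0.14 for Ell2 and -0.14 for Msl2, and the groups overlapped in each.

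**Figure D3:**
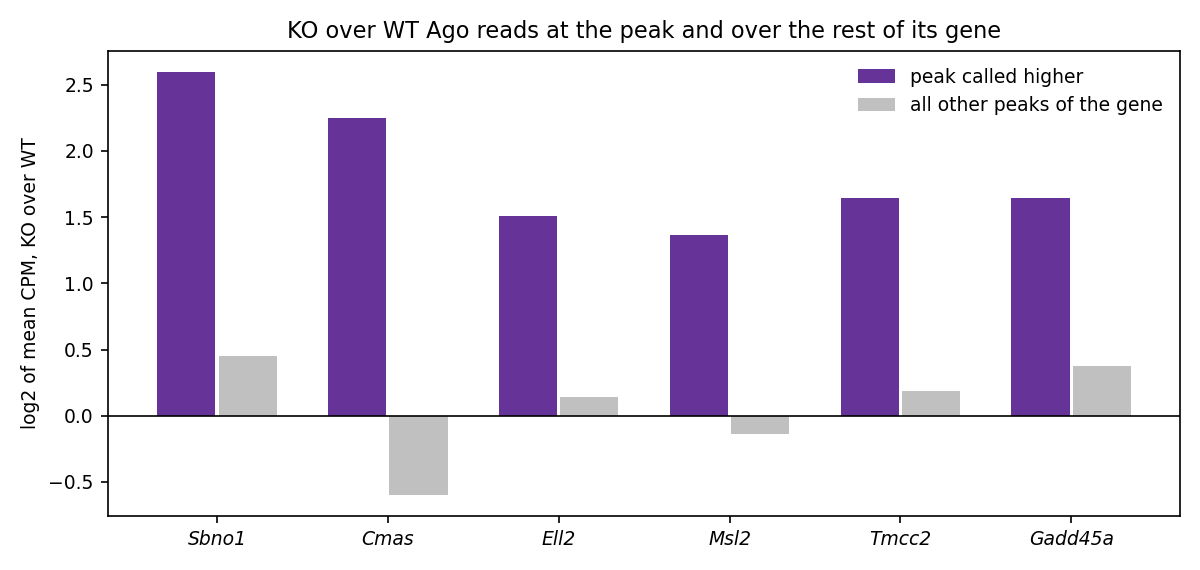
Log2 ratio of mean CPM, KO over WT, for the peak called higher (purple) and for all other peaks of the same gene (grey), both scaled to reads of tested genes. The grey bars run from -0.59 (Cmas) to 0.45 (Sbno1), and the purple bars exceed them in every gene by at least 1.27.

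The 15 other tested peaks had a median log2 change of 0.19, with 9 of 15 above 0, and all tested peaks a median of 0.09. Tmcc2 gave the fullest view of a single transcript, with 12 tested peaks. Its 11 peaks not called ran from -0.31 ± 0.33 in the 5′UTR to 0.63 ± 0.60 in the coding sequence (log2 change, SE). The nearest of them, 15 nt from the higher peak, had 267, 284 and 304 CPM in KO libraries 3, 12 and 13, against 195, 271 and 230 CPM in WT libraries 1, 9 and 10, so the groups overlapped. On its other side, 89 nt towards the end of the gene, a peak had a log2 change of 0.51 ± 0.39 (SE), which became 1.07 without WT library 9. Peaks further up the 3′UTR, 124 nt and 570 nt away, had log2 changes of 0.12 ± 0.35 and -0.13 ± 0.35 (SE).

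The tallest coding peak of Tmcc2, at chr1:132357515-132357559, has a 7-mer-m8 match to miR-16-5p, whose sequence is printed above. It averaged 626 ± 361 CPM in KO and 712 ± 163 CPM in WT (SD, n = 3 each), which overlapped. Gadd45a showed a like contrast over a short distance. Its 3′UTR peak 53 nt from the higher coding peak averaged 524 ± 36.4 CPM in KO and 459 ± 194 CPM in WT (SD, n = 3 each), with a log2 change of 0.19 ± 0.35 (SE).

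Ell2 held peaks called in both directions within its 3′UTR. The peak at chr13:75771673-75771708, 553 nt from the higher one, had 119, 493 and 228 CPM in KO libraries 3, 12 and 13, against 1095, 1389 and 559 CPM in WT libraries 1, 9 and 10. The groups did not overlap and the log2 change was -1.78 ± 0.45 (SE), or -2.58 without KO library 12. It has a miR-451a match with a mismatch and a 7-mer-A1 match to miR-16-5p. In the authors' deposited table its log2 change was -2.34 with a false discovery rate of 0.00169.

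**Figure D4:**
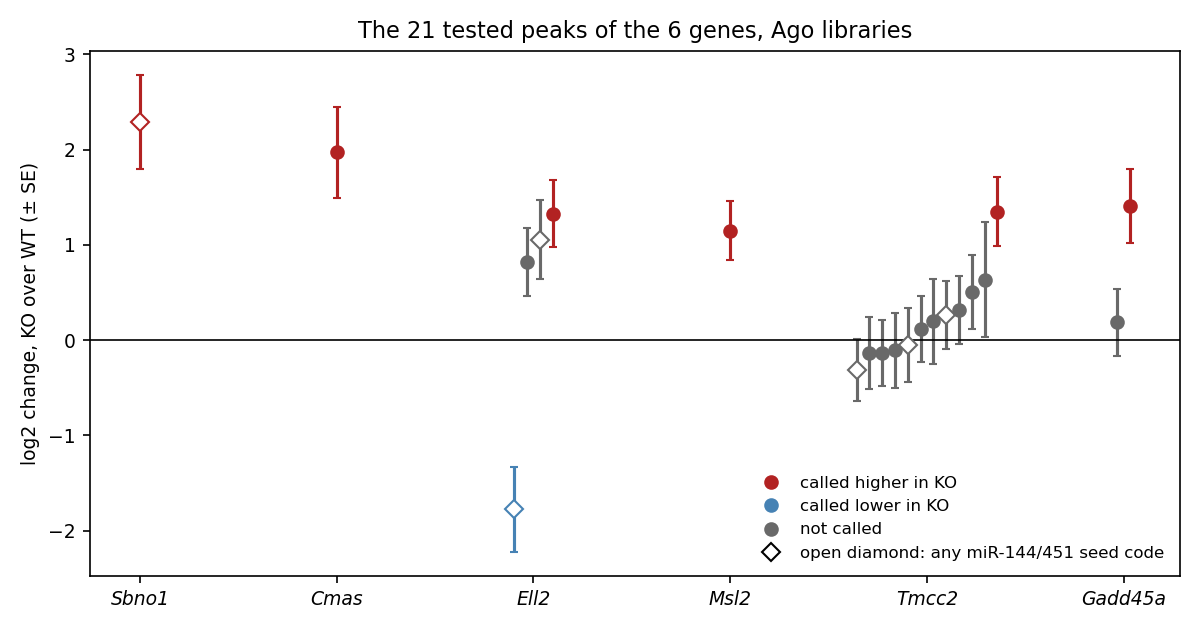
Log2 change, KO over WT, with standard error, for the 21 tested peaks of the 6 genes in the Ago libraries. Filled circles have no locus code and open diamonds have one, and red marks the 6 peaks called higher and blue the Ell2 peak called lower (-1.78), while the grey peaks of Tmcc2 lie around 0.

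Within the same genes, peaks with a 6-mer or longer match to the deleted microRNAs mostly held fewer reads in KO. A locus 6-mer or longer was coded at 9 of the 179 peaks, none of which had enough reads to be tested. Each of the 9 had fewer raw reads in KO than in WT, as had 57.1% of all peaks in the table, with 32 reads in KO and 120 in WT altogether. That ratio of 0.267 compares with 0.726 for all reads, and 8 of the 9 peaks stood below that of all reads, against 44.6% of all peaks. The Ell2 peak at chr13:75772076-75772100 with a 7-mer-m8 match to miR-144-3p had 2, 5 and 0 reads in KO libraries 3, 12 and 13, against 11, 12 and 7 reads in WT libraries 1, 9 and 10. The Msl2 peak at chr9:101101079-101101120, with the same match type, had 0, 3 and 0 reads in KO libraries 3, 12 and 13, against 9, 9 and 6 reads in WT libraries 1, 9 and 10. Both matches are to the site AUACUGU given above. The counts of both peaks are small raw reads, not scaled for the shallower KO libraries. The Gadd45a peak with 6-mers to both miR-144-3p and miR-16-5p was the exception, with 15 reads in KO and 17 in WT, a ratio of 0.882 that is above that of all reads, and it lies inside the overlap with E230016M11Rik.

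Over all strengths of locus code, 51 peaks held 518 reads in KO and 792 in WT, a ratio of 0.654, where all reads of the table gave 0.726. The Ell2 peak called lower alone held 36 of these reads in KO and 149 in WT. Without this peak the ratio of the others was not below that of all reads. The 128 peaks without a locus code held 1913 reads in KO and 1820 in WT, a ratio of 1.05. This group includes 5 of the 6 chosen peaks, which raise its ratio. Msl2 also had fewer KO reads at a 3′UTR peak too low to be tested here, at chr9:101101532-101101562, with 1, 2 and 1 reads in KO libraries 3, 12 and 13, against 7, 13 and 7 reads in WT libraries 1, 9 and 10. It has no seed code for any of the 6 microRNAs coded in the table, so fewer KO reads were not limited to coded peaks. In the authors' deposited table this peak had a log2 change of -2.54 with a false discovery rate of 2.07e-04.

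Features not used in choosing the peaks were compared with the background as counts. A locus 6-mer or longer was coded at 0 of the 6 chosen peaks, at 0 of all 34 higher peaks, at 9.77% of tested peaks and at 33.2% of lower peaks. A locus code of any strength was present at 1 of the 6, at 38.2% of the higher peaks and at 50.1% of tested peaks. The 3′UTR held 5 of the 6, against 52.9% of higher peaks and 37.2% of tested peaks. Within 200 nt of the annotated 3′ end of the gene lay 3 of the 5 3′UTR peaks, those of Cmas, Ell2 and Tmcc2, against 6 of 16 higher and 16.5% of 849 tested 3′UTR peaks with a distance. The window was chosen after the distances were seen, and these counts are too few for more than a description.

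The IgG libraries played no part in the choice and were tested between genotypes. No peak of the 6 genes had enough IgG reads for the test per peak. Of the gene sums only Tmcc2 could be tested, and it was level between genotypes within its error, with a log2 change of 0.04 ± 0.41 (SE, adjusted p = 0.98, edgeR quasi-likelihood test). In that test 0.0% of 249 genes were called higher and 0.0% lower, and at an unadjusted p under 0.05 there was 1 in each direction. Over all peaks the IgG libraries held 82 reads of Tmcc2 in KO and 88 in WT, 33 of Ell2 in KO and 27 in WT, and 18 of Gadd45a in KO and 21 in WT. They held 18 reads of Msl2 in KO and 18 in WT, 13 of Sbno1 in KO and 7 in WT, and 7 of Cmas in KO and 17 in WT. Levels scaled to all reads in peaks overlapped between the genotypes in all 6 genes, and two-sided exact permutation tests gave p from 0.3 to 1.0, all 1.0 after adjustment over the 6, where 3 libraries against 3 cannot go below 0.1. At these counts a modest IgG difference would not have been detectable.

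**Figure D5:**
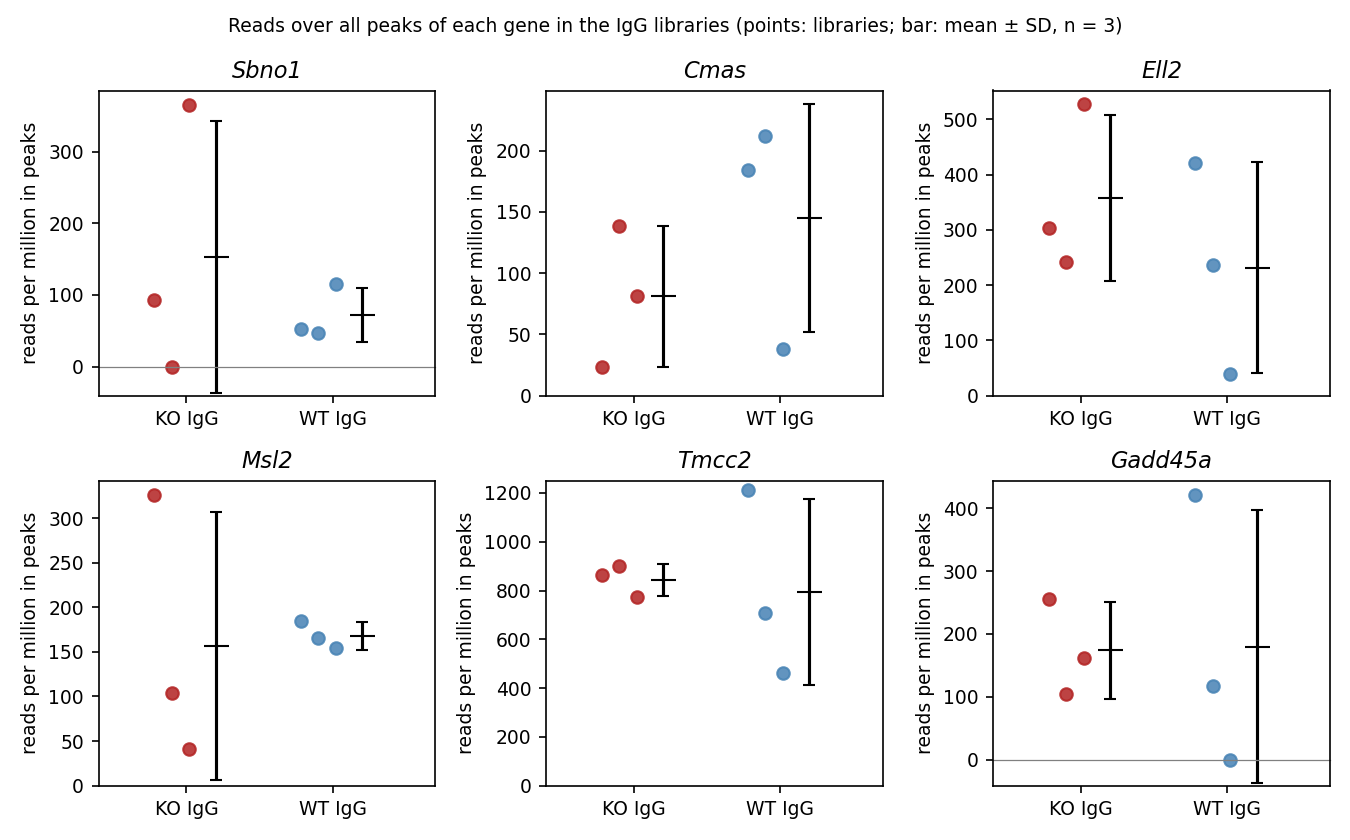
Levels of each gene in the IgG libraries, summed over all its peaks and scaled to reads per 1000000 of the library's reads in peaks (linear axes, the 0 line drawn where an error bar runs below it), with 1 point per library, KO on the left and WT on the right, and mean ± SD (n = 3). The groups overlap in all 6 panels, and Tmcc2 is highest at 845 in KO and 793 in WT.

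At the chosen peaks themselves IgG reads were few. Tmcc2 had 10 IgG reads in KO and 7 in WT, Ell2 3 in KO and 2 in WT, Gadd45a 2 in KO and 3 in WT, Sbno1 2 in KO and 1 in WT, and Cmas 0 in KO and 2 in WT. Msl2 stood out, with 11 IgG reads in KO and 1 in WT, 9 of the 11 from KO library 4, and whether this background bears on its Ago gain was not tested.

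Averaged over genotypes, 4 peaks of the 6 genes could be compared between Ago and IgG, and all were higher in Ago, as were 39.4% of 1364 tested peaks. At the 3 chosen peaks among them, the only Ago libraries that reached the filter of this test were those of KO. Their values share the reads that chose them and are given as descriptions without p-values. The log2 enrichment was 4.37 ± 0.57 for the Ell2 peak, 3.98 ± 0.54 for the Msl2 peak and 2.88 ± 0.50 for the Tmcc2 peak (SE). The miR-16-coded coding peak of Tmcc2, not a chosen one, reached 4.56 ± 0.62 (SE). Only Ago libraries reached the filter at that peak, so its value too is a description without a p-value. With library size alone in place of TMM the enrichment was 3.44 for Ell2, 3.10 for Msl2, 1.92 for the higher Tmcc2 peak and 3.60 for the coding one, and with no filter 3.37, 3.01, 1.83 and 3.53 in the same order. Leaving out each of the 6 IgG libraries gave 3.32 to 4.09 for Ell2, 3.00 to 4.39 for Msl2, 1.87 to 2.69 for the higher Tmcc2 peak and 3.49 to 4.12 for the coding one, with KO IgG library 14 giving the lowest value each time. Peaks were called on the Ago libraries, which favours this direction, and leaving out any Ago library left no peak of the 6 genes testable.

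Summed over the gene, the enrichment was far smaller and no gene passed, where 13.9% of 2645 genes were higher in Ago and 16.7% lower. The sums include the chosen peaks and so share reads that chose the genes, which limits the p-values below. Cmas had a log2 enrichment of 0.76 ± 0.37 (SE, adjusted p = 0.10) and Ell2 0.64 ± 0.27 (adjusted p = 0.066) by the edgeR quasi-likelihood test. Tmcc2, the gene with the most reads, had 0.04 ± 0.23 (SE, adjusted p = 0.90), and the median of all tested genes was 0.33. With other scalings, with no filter or without a single library, between 0 and 4 of the genes were called higher.

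Genes that work with the members were counted from lists of partners. In the sialic acid pathway around Cmas, 15 of 23 genes had peaks, and of 6 gene sums and 2 peaks tested none was called. St3gal5, a sialyltransferase and the gene with the most reads, had a log2 change of -0.46 ± 0.19 (SE, adjusted p = 0.18, edgeR quasi-likelihood test). Among elongation partners of Ell2, 0 of 14 gene sums was called, and 1 of 4 tested peaks was lower, where 17.6% of all tested peaks and 5.37% of all gene sums were. That peak lay in the coding sequence of Aff1, a scaffold of the super elongation complex, at chr5:103784220-103784248, with a miR-451a 6-mer. It had 89.1, 56.9 and 76.1 CPM in KO libraries 3, 12 and 13, against 803, 638 and 657 CPM in WT libraries 1, 9 and 10. The log2 change was -3.24 ± 0.41 (SE). The Aff1 peak passed the filter on low counts only through the WT libraries. A difference was thus built into its being tested, and its values are a description without a p-value.

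Of the MSL and NSL complexes around Msl2, 0 of 8 gene sums and 0 of 2 peaks were called. Of the Gadd45 family and p53 targets, 0 of 8 gene sums was called. The 14 tested peaks of this list came from only 2 genes. None of them was higher and 1 was lower, where 17.6% of all tested peaks were lower. That one lay in the 3′UTR of Btg2, an antiproliferative p53 target, at chr1:134076360-134076395, with a mismatched miR-451a code. Its log2 change was -3.01 ± 0.49 (SE). The Btg2 peak too passed the filter only through the WT libraries, so its values are a description without a p-value. Of the paralogs of Sbno1 and Tmcc2, 2 of 3 had gene sums tested and none was called, with Tmcc1 at 0.68 ± 0.32 (SE, adjusted p = 0.24, edgeR quasi-likelihood test).

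The 3 genes whose summed reads over the 12 libraries were most like those of the members were Fam117a, Fcho2 and Zfp217. Each had a mean Pearson correlation of 0.73 with the 6 genes, among 2863 genes compared, on log2 CPM. The members correlated with each other at 0.11 to 0.93, with a median of 0.35 over 15 pairs. All points share libraries and the contrast of Ago with IgG.

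Marker lists were read as shares of the peak reads of each library, which in Ago libraries do not separate cell make-up from Ago binding. Erythroid markers, of which 11 of 17 had peaks under these names, took 1.12% to 1.39% of peak reads in KO Ago libraries and 1.56% to 1.88% in WT Ago libraries, with 2 of 11 gene sums called lower, where 5.37% of all were, and 1 of 11 log2 changes above 0. The listed globins, Hbb-bt, Hbb-bs, Hba-a1 and Hba-a2, had no peaks under these names, so the erythroid shares hold no globin reads. Hepatocyte markers took 1.19% to 2.34% in KO Ago libraries and 0.635% to 1.90% in WT Ago libraries, with 12 of 12 log2 changes above 0 and none called. Granulocyte markers took 0.142% to 0.218% in KO Ago libraries and 0.120% to 0.180% in WT Ago libraries, with 7 of 8 log2 changes above 0 and none called. Macrophage markers stayed at or under 0.0414% in all Ago libraries. In the IgG libraries erythroid markers took 1.29% to 2.32% in KO and 1.18% to 2.10% in WT. Hepatocyte markers took 1.84% to 2.67% in KO IgG libraries and 1.65% to 2.45% in WT IgG libraries, so both lists overlapped between genotypes there. The part of the shifts in the Ago libraries in the gains of the 6 genes was not tested.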

How the data were processed

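The tools named in the submitters' processing notes are STAR, cutadapt, limma and bedtools, on mm10, without versions or roles. The authors deposited raw read counts per peak (reads overlapping by at least 16 bases), a maximum coverage signal per peak, seed codes and a density over background as scores, and an IgG height ratio. The authors' deposited table gives log2 changes and p-values with false discovery rates, which were copied and not recomputed. Counts of 12 libraries in 4 groups were analysed per peak and summed per gene.

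KO against WT in Ago, KO against WT in IgG, and Ago against IgG over both genotypes were fitted with edgeR 4.0.16 in R 4.3.3 (TMM, filterByExpr with a minimum count of 10 and total of 15, threshold 0.05). Standard errors were derived from the F statistic. Alternatives used limma 3.58.1 voom, DESeq2 1.42.0, other scalings, no filter and left-out libraries. The fit was tested on simulated data. The named genes are the 6 members with every tested peak, the 3 genes most like them, and, of partner lists, called genes and those with the most reads. Members and lists were chosen with earlier results of these data known. Each library has its own number and the labels do not say whether libraries were paired, so no pairing was used. Intervals cover counting error only.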

Additional observations from a re-analysis of the deposited data

How the results depend on the processing

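The log2 changes of the 6 peaks kept their sign in every setting in which the peak was tested. The Sbno1 peak was not tested without KO 12, WT 1 or WT 9. No member gene sum was called between genotypes in Ago or IgG libraries under any setting run. Per peak in Ago, the 34 higher calls became 69 with library size alone and 7 with DESeq2, and 3 to 54 when a library was left out (3 without WT 1, 14 without KO 12, 54 without KO 3). The 428 lower calls became 2704 without a filter and 304 to 986 with a library left out. Of member peaks, 2 were higher and 5 lower without a filter, 2 to 7 were higher and 1 to 2 lower with a library left out, and DESeq2 called 4 of the 6. Per gene in Ago, the 29 higher genes became 13 without a filter, 6 with DESeq2 and 5 to 89 with a library left out (5 without KO 13 or WT 1, 89 without WT 10), and the 238 lower genes 435, 117 and 115 to 322 (lowest without KO 13). Between genotypes in IgG, 1 peak was higher without a filter. For Ago against IgG per peak, the 538 higher calls became 25849 without a filter (84 of them in the members) and 104 to 1704 with a library left out (0 to 17 in the members, with 0 of the members' peaks tested once an Ago library was gone). Per gene, the 367 higher calls became 578 with library size alone, 2262 without a filter, 564 with DESeq2 and 87 to 1396 with a library left out, and the 443 lower calls 171 to 644. Member genes called higher were 1 with DESeq2 size factors, 2 with library size alone, 4 without a filter, 2 with DESeq2 and 0 to 3 with a library left out. The Sbno1 share was 6.78 percentage points higher in KO by maximum coverage. No paired analysis was run, because the labels do not say whether any libraries were paired. Low read counts limit the peaks, down to 1 read per library at Sbno1 and Cmas in WT. The causes of these shifts were not tested, beyond the number of features tested where the filter or the libraries changed.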
